A study of Mus musculus with 12 samples.

Results

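The genes for the subunits of the proteasome, its activators and its assembly factors were followed across single tendon cells of Tnmd-/- and WT mice. Members were all gene symbols of the count table that read Psm, then a letter from a to g, then digits, without the pseudogene ending -ps, which gave 48 of 55418 symbols. Single ScxGFP+ cells had been picked by micromanipulator from uninjured, untreated Achilles tendons after 8 h of collagenase digestion. Libraries were made with the Smart-Seq2 protocol, in which reads cover whole transcripts and carry no molecular identifiers. One group held 6 Tnmd-/- ScxGFP+ cells, whose mice lack the membrane glycoprotein tenomodulin throughout the body, and the other held 6 Tnmd WT ScxGFP+ cells. Mice of both groups were on a C57BL/6 background and carried ScxGFP, which makes cells that express the tendon regulator scleraxis fluoresce. Tnmd lies on the X chromosome, and animals with a working copy, heterozygous females included, counted as WT in the study. Neither the animal behind a cell nor the age of these animals is given in the labels. Each genotype therefore counted as 1 sample, genotypes were compared without a test, and intervals are exact 95% intervals that cover counting error only.

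The proteasome degrades proteins that have been tagged with ubiquitin. Its core particle is a stack of alpha rings, which gate the entrance, and beta rings, which hold the protease sites. The regulatory particle docks on the core with a base of ATPases that unfold the substrate, while a lid removes the ubiquitin chain. Interferon can exchange the catalytic beta subunits for immunoproteasome forms, and dedicated chaperones assemble the complex before they leave it. Tendon cells secrete and turn over large amounts of matrix protein and use this complex, as all nucleated cells do, for the turnover of their own proteins.

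The cells held 892713 to 13613080 counts on genes, and sums over the genotypes were 35088506 (Tnmd-/-) and 53439236 (WT). Values are counts per 1000000 (CPM) of the total of a cell or of a genotype. The level of 3 counts in the sum, 0.0855 CPM for Tnmd-/- and 0.0561 CPM for WT, was taken as the limit for a gene with 0 counts. Cells 9, 10 and 20 of the Tnmd-/- group and cells 4, 5 and 10 of the WT group were annotated as less degraded in the study, and the other 3 cells of each genotype as more degraded. Tnmd-/- cells 3 and 7 and WT cell 14 were the shallowest, and Tnmd-/- cell 3 had 51.8% of its counts on mitochondrial genes. All 11 tendon markers examined were read in at least 1 cell and together gave 52152 CPM (Tnmd-/-) and 69918 CPM (WT). Most of this was Dcn, with 40010 and 56340 CPM. With 1 CPM added, 5 of the 11 were at most halved in the Tnmd-/- sum and 0 at least doubled. Scx had 3 counts in the Tnmd-/- against 2074 in the WT cells, Tnmd 8 against 10185, and Lum 40 against 21388. Col3a1 was at 7.92 against 50.6 CPM and Fmod at 192 against 668 CPM. Mkx (53.4 against 36.5 CPM) and Thbs4 (2303 against 1963 CPM) were higher in the Tnmd-/- sum. Scx reached 10 counts in 0 Tnmd-/- and 3 WT cells. Only WT cell 14 was rich in Tnmd, and the remaining WT cells held under 10 counts of it each, as did every Tnmd-/- cell. Of the lists for other cell types, red blood cell markers were at 0 in all cells and immune markers gave 1125 against 2 counts, nearly all from Itgam in 1 Tnmd-/- cell. The lists for cartilage, endothelial, mural, glial, skeletal muscle and adipocyte cells summed to 1.60 to 767 CPM in the Tnmd-/- cells and 0.0374 to 155 CPM in the WT cells. Cartilage markers were at 767 CPM (Tnmd-/-) against 84.7 CPM (WT), and adipocyte markers at 39.6 against 0.0561 CPM. Acan, with at least 10 counts in 2 Tnmd-/- cells, gave 19510 of the 26896 Tnmd-/- cartilage counts. Col2a1, Col9a1 and Matn3 were at 0 in all cells. The 1389 Tnmd-/- adipocyte counts were all from Fabp4, which reached 10 counts in Tnmd-/- cell 3 alone, and Adipoq, Cfd and Lep were at 0 in all cells. Mural (64.6 against 155 CPM) and glial markers (23.1 against 44.0 CPM) were lower in the Tnmd-/- sum.

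Proteasome transcripts were typically seen in more cells than other genes of these profiles were. A gene was taken as seen in a cell from 10 counts. At least 1 count was found for 42 of the 48 genes, and 41 reached 20 counts over all cells. Of these 41 genes, 31 (75.6%) were seen in 6 or more of the 12 cells, compared with 18.8% of the 9768 genes that passed the same minimum. Their median was 8 cells, against 2 for all such genes. After all cells were thinned to the 892713 counts of the shallowest one, 28 members and 13.7% of all such genes were seen in 6 or more cells. Psma2 and Psma3 of the alpha ring were seen in all 12 cells, as were 213 genes in total. Counts of 0 and of at least 100 were the most frequent. Of the 576 combinations of member and cell, 167 held 0 counts (29.0%), 107 held 1 to 9 (18.6%), 54 held 10 to 99 (9.38%), and 248 held 100 or more (43.1%). The corresponding shares were 57.2%, 15.8%, 6.76% and 20.2% for all genes with at least 20 counts, a minimum that was not set for the 48 members here.

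**Figure D1:**
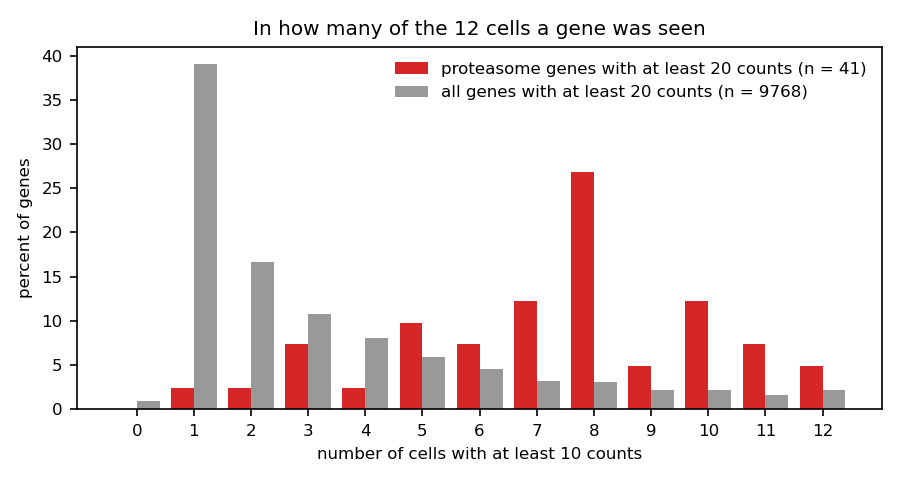
Percent of genes (vertical axis) by the number of cells in which a gene had at least 10 counts (horizontal axis), for the 41 proteasome genes (red) and for all 9768 genes (grey) with at least 20 counts over the 12 cells. The proteasome genes peak at 8 cells with 11 genes, whereas 39.0% of all genes were seen in 1 cell.

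The summed level spread widely over the cells of both genotypes. In the Tnmd-/- cells the 48 genes summed to 6412 CPM in cell 1, 831 in cell 3, 1702 in cell 7, 7730 in cell 9, 9862 in cell 10 and 13942 CPM in cell 20. In the WT cells they summed to 20851 CPM in cell 1, 7883 in cell 2, 10209 in cell 4, 4787 in cell 5, 14199 in cell 10 and 4235 CPM in cell 14. The highest cell exceeded the lowest 25.1-fold, and the ranges of the genotypes overlapped, with Tnmd-/- cells 3 and 7 below all WT cells and WT cells 1 and 10 above all Tnmd-/- cells. The number of members seen was 15 to 32 (median 24) per Tnmd-/- cell and 11 to 37 (median 28) per WT cell. At equal depth, the range was 6 to 29 and 9 to 35. Pooled over cells, 312326 counts or 8901 CPM (8870 to 8932) were found in the Tnmd-/- cells and 560266 counts or 10484 CPM (10457 to 10512) in the WT cells. The pooled log2 ratio, Tnmd-/- over WT, was -0.24 (-0.24 to -0.23). It was 0.020 in the less degraded cells and -1.31 in the more degraded cells, where 2 of the 3 Tnmd-/- cells are the shallowest of all. Leaving out WT cell 1 gave -0.044, leaving out WT cell 10 gave -0.050, and weighting cells equally gave -0.62.

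**Figure D2:**
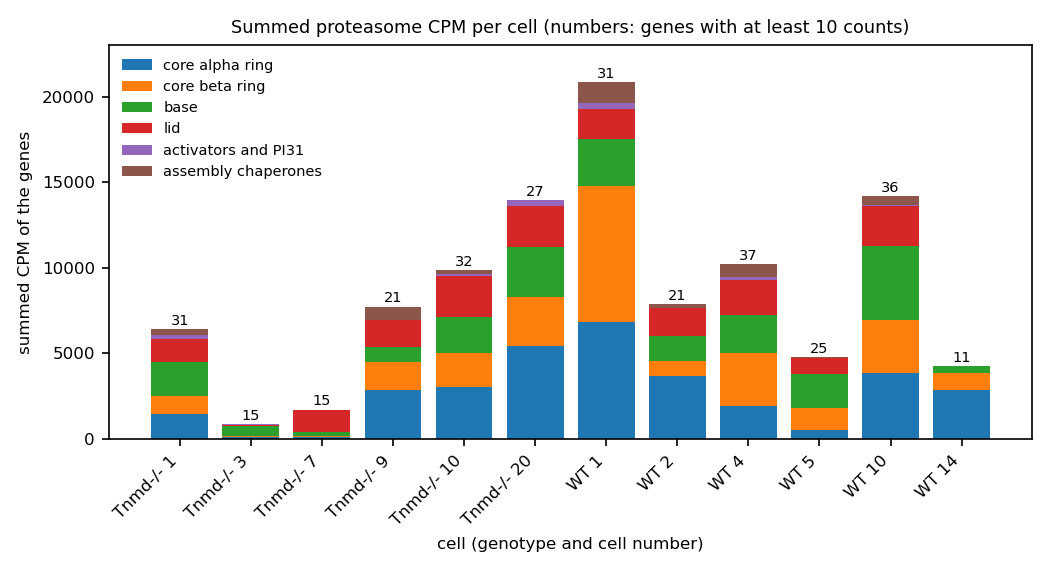
Summed CPM of the proteasome genes in each of the 12 cells, stacked by role (bars start at 0), with the number of members that had at least 10 counts above each bar. WT cell 1 reached 20851 CPM and Tnmd-/- cell 3 reached 831 CPM, and the cells of the genotypes overlapped.

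Gene by gene, more members were lower than higher in the pooled Tnmd-/- cells. Among the 41 members with at least 20 counts, 4 were at least doubled in the pooled Tnmd-/- cells (9.76%) and 11 were at most halved (26.8%), with 1 CPM added to both sides. Below, the ratio of a gene is the pooled log2 ratio, Tnmd-/- over WT, without this addition unless it is named. Of the 9768 genes so compared, 35.5% were at least doubled and 34.9% at most halved. The median log2 ratio was -0.18 for the members and 0.06 for all genes, and the median of the members lay between -0.87 and -0.61 with cells weighted equally, with DESeq2 size factors or with TMM factors. The values of the 6 and 6 cells overlapped for every member, and they did not overlap for 0.0410% of all genes. Of the 15 members past a doubling, Psmb1, Psmb2, Psmd6, Psmd12, Psme2, Psme4 and Psmg4 stayed past it with each cell left out in turn. Only 20 of the 41 members kept the sign of their ratio with each cell left out, so the range over cells left out, with 1 CPM added, is given beside many of the ratios below. Members were seen in more cells than other genes were, and the part of this in the smaller share past a doubling was not tested.

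**Figure D3:**
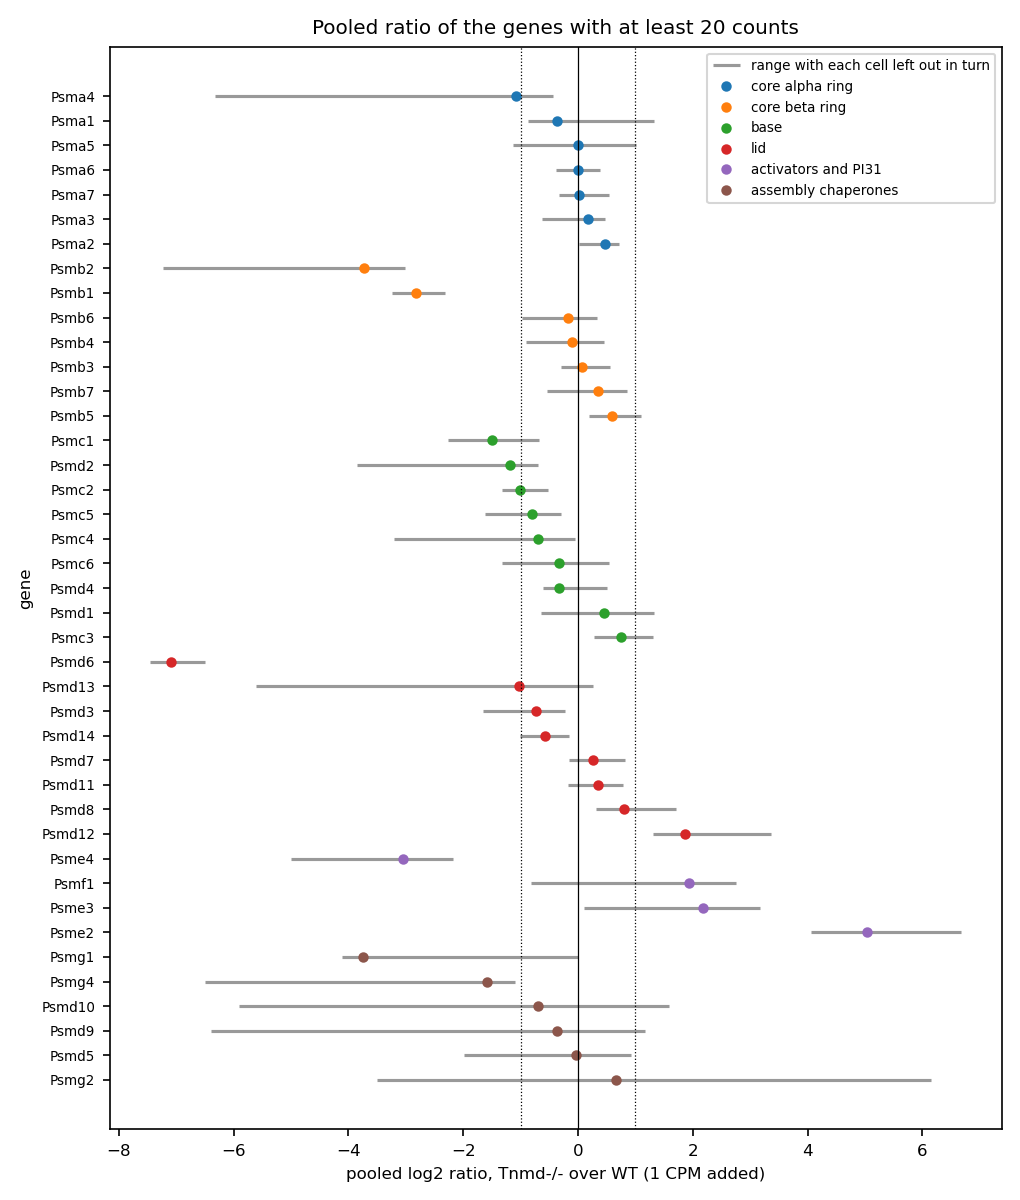
Pooled log2 ratio, Tnmd-/- over WT with 1 CPM added, of the 41 proteasome genes with at least 20 counts (points, coloured by role), with the lowest and highest ratio when each cell was left out in turn (grey bars). Dotted lines mark a doubling in either direction, and Psmd6 (-7.09) and Psme2 (5.04) lie furthest from 0.

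**Figure D4:**
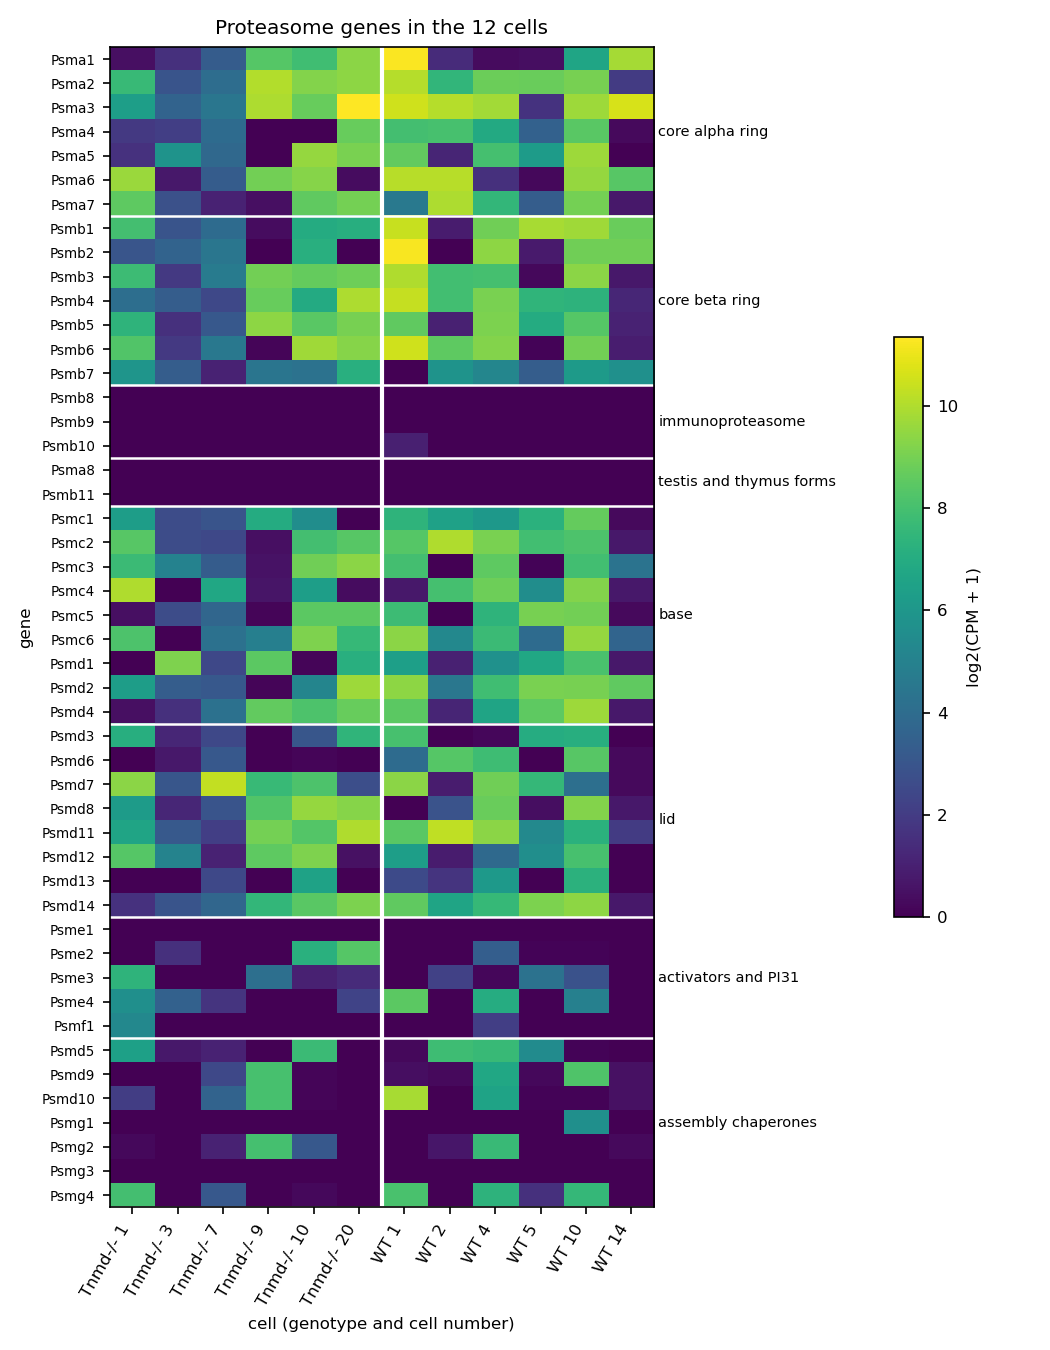
Heat map of log2(CPM + 1) for the 48 proteasome genes (rows, by role) in the 12 cells (columns, Tnmd-/- cells left of the white line and WT cells right of it). Most core, base and lid genes are bright in some cells and dark in others of both genotypes, whereas the immunoproteasome rows are dark in all cells.

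The alpha ring genes Psma1 to Psma7 were at similar summed levels in both genotypes, 2997 CPM in the Tnmd-/- cells and 2879 CPM in the WT cells, with a log2 ratio of 0.06 (0.05 to 0.07). The sign of this value was not stable. It ranged from -0.25 to 0.33 with single cells left out, was -0.60 with equal weights, and was 0.71 in the less and -2.17 in the more degraded cells. All 7 genes were seen in at least 6 cells, and none had 0 counts in a whole genotype. Psma2 (chromosome 13 from 14613240 to 14674236) gave the highest ratio of the ring. Its values were 198, 6.65, 15.7, 1067, 605 and 680 CPM in Tnmd-/- cells 1, 3, 7, 9, 10 and 20, and 1087, 177, 451, 438, 517 and 2.88 CPM in WT cells 1, 2, 4, 5, 10 and 14. High and low cells occurred in both genotypes, and the pooled log2 ratio was 0.46 (0.44 to 0.49). With 1 CPM added it stayed between 0.02 and 0.72 with single cells left out, but was -0.06 with equal weights, -0.23 with DESeq2 and -0.11 with TMM factors, and -1.78 in the more degraded cells. Psma3, the other gene seen in every cell, ranged from 11.3 to 2611 CPM (median 252) in the Tnmd-/- cells and from 2.16 to 1604 CPM (median 980) in the WT cells, with a ratio of 0.18 (0.16 to 0.20). This ratio reversed to -0.63 without Tnmd-/- cell 20, to -0.51 with equal weights, to -1.40 with DESeq2 and -0.73 with TMM factors, and to -4.50 in the more degraded cells, with 1 CPM added.

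Psma4 (chromosome 9 from 54950790 to 54958030) was the alpha gene with the lowest ratio, and a single cell carried it in the Tnmd-/- group. Its values were 2.64, 3.32, 14.6, 0, 0 and 413 CPM in the Tnmd-/- cells in the same order, and 244, 266, 118, 10.5, 349 and 0.221 CPM in the WT cells. Tnmd-/- cell 20 gave 98.9% of the Tnmd-/- counts, whereas 4 WT cells were above 100 CPM. The log2 ratio of -1.08 (-1.15 to -1.02) was -6.33 without that cell and -0.44 without WT cell 10, with 1 CPM added. Psma1 ran in opposite directions at the degradation levels. It had 10281 counts in the less degraded Tnmd-/- cells against 1376 in the WT cells of that level, but 13 against 18878 in the more degraded cells, 14740 of them in WT cell 1. Psma8, the alpha subunit known from testis, had 0 counts in all 12 cells.

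The beta ring was lower in the Tnmd-/- sum, with 1773 against 2848 CPM for Psmb1 to Psmb7, a log2 ratio of -0.68 (-0.70 to -0.67) that stayed between -0.92 and -0.31 with single cells left out. It was -0.28 in the less and -2.35 in the more degraded cells. Psmb1 and Psmb2, structural subunits without protease activity, were lowest, and the ratios of the other 5 beta genes lay between -0.18 and 0.60. Psmb2 (chromosome 4 from 126677630 to 126709714) was at 6.97, 11.3, 21.3, 0, 141 and 0 CPM in the Tnmd-/- cells and at 2430, 0, 682, 0.749, 472 and 470 CPM in the WT cells. Thus 4 WT cells exceeded every Tnmd-/- cell, while WT cells 2 and 5 lay among the lowest. The pooled values of 43.6 and 592 CPM gave a log2 ratio of -3.76 (-3.84 to -3.69). Psmb1 (chromosome 17 from 15475021 to 15499751) was at 248, 6.65, 14.6, 0.29, 126 and 139 CPM in the Tnmd-/- cells and at 1347, 0.829, 472, 931, 858 and 429 CPM in the WT cells. Here 5 of 6 WT cells exceeded all Tnmd-/- cells and WT cell 2 was near 0, with a pooled ratio of -2.83 (-2.88 to -2.78). With 1 CPM added, Psmb1 was at -3.19 in the less and -1.90 in the more degraded cells, and Psmb2 at -2.86 and -6.70.

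The catalytic subunits did not share this pattern. Psmb5, which carries the chymotrypsin-like site, had the highest ratio of the beta ring, 0.60 (0.56 to 0.63), from 430 and 284 CPM. Its single cell values were 167, 1.99, 7.84, 684, 347 and 526 CPM in the Tnmd-/- cells and 380, 1.04, 559, 126, 324 and 1.11 CPM in the WT cells. The groups overlapped over nearly their whole range, and each held at least 2 cells below 10 CPM. With 1 CPM added the ratio was 0.19 to 1.10 with single cells left out and -0.36 in the more degraded cells. Psmb6, with the caspase-like site, was at 309, 2.66, 22.4, 0.0968, 838 and 632 CPM in the Tnmd-/- cells and at 1483, 370, 613, 0.0832, 495 and 0.886 CPM in the WT cells. The ratio of Psmb6 was -0.18 (-0.21 to -0.15) and took both signs as single cells were left out. Psmb7, with the trypsin-like site, was low but present in most cells, at 59.7, 9.3, 1.12, 20.5, 18.4 and 143 CPM in the Tnmd-/- cells and at 0, 55.3, 35.7, 9.15, 71.3 and 50.9 CPM in the WT cells, with a ratio of 0.36 (0.26 to 0.45). Tnmd-/- cell 20 gave 56.8% of the Tnmd-/- counts, and with 1 CPM added the ratio was -0.53 without that cell, -0.06 with DESeq2 and -0.18 with TMM factors. WT cell 1, the cell with the highest proteasome sum, was the only cell with no Psmb7 count. Exon bases shared with another annotated gene made up 12.1% of Psmb5 and 11.8% of Psmb7, and the strand of counting is not given in the sources used here.

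Per length the catalytic genes were far apart, although their products enter the core in equal number. Over all cells Psmb5 was at 381 CPM per kilobase of exon, Psmb6 at 239 and Psmb7 at 12.3, the lowest of the 14 core genes. The length is that of all annotated exons of a gene, 899 bases for Psmb5 and 3421 for Psmb7, not that of the transcripts present. Before division by length, Psmb5 had 30285 and Psmb7 3723 counts. The other core genes lay between 56.8 (Psma4) and 362 (Psma6) CPM per kilobase. Within single cells the spread ranged from narrower to wider than this. In each cell the highest core gene exceeded the lowest one seen by 5.58-fold (Tnmd-/- cell 7) to 580-fold (Tnmd-/- cell 1) per kilobase. No core gene had more than 23 counts in Tnmd-/- cell 7, so the minimum of 10 counts limited its spread. In Tnmd-/- cell 9 Psma2 had 11024 counts while Psma4, Psma5 and Psmb2 had none. WT cell 10 was the only cell in which all 14 constitutive core genes were seen, and the other cells showed 7 to 13 of them, so in 11 of 12 cells the transcript of at least 1 core subunit was under 10 counts.

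Immunoproteasome transcripts were not detectable at this depth, apart from 6 counts of Psmb10. Psmb8 and Psmb9, which lie close to each other on chromosome 17 among the antigen presentation genes, had 0 counts in all 12 cells, under the limits of 0.0855 CPM for Tnmd-/- and 0.0561 CPM for WT. Exon bases shared with another annotated gene made up 14.7% of Psmb8 (Gm20496) and 5.79% of Psmb9 (Tap1). Psmb10 (chromosome 8 from 105935735 to 105938444) had 6 counts in WT cell 1 and none elsewhere. Psmb11, the beta subunit of the thymus, was at 0 in all cells. The constitutive counterparts Psmb5, Psmb6 and Psmb7 together held 31352 counts in the Tnmd-/- cells and 42276 counts in the WT cells. A list of 12 interferon-responsive genes gave 5620 counts in the Tnmd-/- against 6 in the WT cells. Only 5 of the 12 reached 20 counts, and each was seen in 1 or 2 cells. All 5 were at least doubled in the Tnmd-/- sum, where 35.5% of all genes were, and 3 were without Tnmd-/- cell 10. Stat2, a transducer of type I interferon, had 1313 against 1 count (ratio 10.97, 8.48 to 16.27) and was seen in Tnmd-/- cell 10 alone. Irf7, Irf9, Nlrc5, Gbp3, Ifit1, Isg15 and Mx1 were at 0 throughout.

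Genes for the base of the regulatory particle were seen broadly and were lower in the Tnmd-/- sum, with 1787 against 2550 CPM and a log2 ratio of -0.51 (-0.53 to -0.50). The value remained negative with each cell left out (-0.75 to -0.11), but was 0.19 with DESeq2 size factors. All 9 base genes were seen in at least 6 cells. Of the ATPases Psmc1 to Psmc6, Psmc1 and Psmc2 were at most halved, Psmc4, Psmc5 and Psmc6 were at ratios of -0.80 to -0.33, and Psmc3 was the highest of the base. Psmc3 (chromosome 2 from 91054009 to 91066369) was at 216, 31.9, 8.96, 0.484, 475 and 655 CPM in the Tnmd-/- cells and at 251, 0, 369, 0.0832, 244 and 19 CPM in the WT cells, with a ratio of 0.75 (0.71 to 0.79). Psmc1 (chromosome 12 from 100110154 to 100123405) was at 80, 5.32, 6.72, 126, 46 and 0 CPM in the Tnmd-/- cells and at 168, 90.1, 65.9, 149, 412 and 0.221 CPM in the WT cells, with a ratio of -1.52 (-1.58 to -1.45). WT cells 1, 5 and 10 lay above every Tnmd-/- cell, and without WT cell 10 the ratio was -0.68 with 1 CPM added. Psmc6 was the most broadly seen base gene, in 11 cells, at 0 to 563 CPM (median 110) in the Tnmd-/- cells and 11.7 to 743 CPM (median 125) in the WT cells.

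Among the non-ATPase base genes, Psmd2, a scaffold that binds ubiquitin receptors, was at 183 against 418 CPM (ratio -1.19, -1.23 to -1.15). Tnmd-/- cell 20 gave 87.6% of its Tnmd-/- counts, and the ratio without it was -3.85 with 1 CPM added. Psmd4, a ubiquitin receptor, was at 283 and 354 CPM (-0.33, -0.36 to -0.29). WT cell 10 carried 58.4% of the WT counts of Psmd4, and with 1 CPM added the ratio was 0.51 without that cell and -5.25 in the more degraded cells. Psmd1 was at 158 and 115 CPM (0.46, 0.40 to 0.51). Tnmd-/- cell 9 gave 67.3% of its Tnmd-/- counts, and with 1 CPM added the ratio was -0.64 without that cell, 1.33 without WT cell 10 and 3.86 with DESeq2 factors. In Tnmd-/- cell 3 Psmd1 held 858 of the 1250 proteasome counts of that cell. The DESeq2 factor of this cell was 0.0379, so these counts weigh heavily in the value of 3.86. Psmc4 ran in opposite directions at the degradation levels. Its ratio was -3.60 in the less and 3.15 in the more degraded cells, with 1 CPM added, since Tnmd-/- cell 1 held 5439 of the 6369 Tnmd-/- counts.

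The lid held the member furthest from 0. Psmd6 (chromosome 14 from 14112174 to 14120984), a structural lid subunit, was at 0, 0.665, 7.84, 0, 0.097 and 0 CPM in the Tnmd-/- cells and at 14.5, 324, 227, 0, 337 and 0.221 CPM in the WT cells. In counts these were 0, 1, 7, 0, 1 and 0 against 87, 1562, 2826, 0, 4588 and 1. No Tnmd-/- cell reached 10 counts and 4 of 6 WT cells did, while WT cells 5 and 14 were as low as the Tnmd-/- cells. The pooled log2 ratio was -9.37 (-10.50 to -8.44). With 1 CPM added it was -7.09, and it lay between -7.45 and -6.50 with each cell left out, at -7.56 in the less and -5.74 in the more degraded cells, and at -5.96, -3.44 and -4.38 with equal weights, DESeq2 and TMM factors. The other 7 lid genes were seen in at least 1 Tnmd-/- cell each.

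Psmd12 (chromosome 11 from 107479484 to 107504362), another lid scaffold, was the lid gene with the highest ratio. It was at 323, 33.2, 1.12, 366, 577 and 0.445 CPM in the Tnmd-/- cells and at 80.6, 0.829, 13.7, 48.3, 262 and 0 CPM in the WT cells. Tnmd-/- cells 1, 9 and 10 were above every WT cell, and both groups also held cells near 0. The pooled ratio was 1.87 (1.82 to 1.92), and with 1 CPM added it stayed between 1.31 and 3.36 with each cell left out. Psmd8 was at 444 and 254 CPM (0.81, 0.77 to 0.84), and Psmd3 at 55.8 and 93.0 CPM (-0.74, -0.81 to -0.66). Psmd14, the metalloprotease that cuts the ubiquitin chain off the substrate, was seen in 11 cells, at 2.07, 6.65, 12.3, 182, 350 and 555 CPM in the Tnmd-/- cells and at 383, 98.2, 193, 546, 676 and 0.664 CPM in the WT cells (-0.57, -0.61 to -0.54). Psmd11 was also seen in 11 cells, at 3.36 to 1021 CPM (median 206) in the Tnmd-/- cells and 2.88 to 1238 CPM (median 250) in the WT cells (0.35, 0.32 to 0.38), but the ratio was -0.17 without Tnmd-/- cell 20, with 1 CPM added. Psmd7 was at 278 and 231 CPM, and Tnmd-/- cell 7 had 1128 of its 1519 proteasome counts on this gene. Psmd13 gave -1.06 (-1.17 to -0.96) from 939 and 2986 counts, but 0.27 without WT cell 10, with 1 CPM added. As a group the lid was at 1846 and 1639 CPM (0.17, 0.16 to 0.19), with a range of -0.01 to 0.40 over single cells left out. It was 0.03 with equal weights, 0.55 with TMM and 1.02 with DESeq2 factors, and -0.19 in the more degraded cells.

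Activators were rare, and few cells made each of their sums. Psme2 (chromosome 14 from 55587441 to 55591113), a subunit of the interferon-inducible activator ring that opens the core without ATP, was at 0, 1.99, 0, 0, 148 and 329 CPM in the Tnmd-/- cells and at 0, 0, 9.62, 0.0832, 0.0735 and 0 CPM in the WT cells. It was seen in Tnmd-/- cells 10 and 20 with 1525 and 2215 counts and in WT cell 4 with 120 counts, a pooled ratio of 5.55 (5.29 to 5.82). Its ring partner Psme1, which lies close by on the same chromosome, had 0 counts in all 12 cells, the 2 cells rich in Psme2 included. Psme3, which forms the nuclear activator ring on its own, was the most broadly seen of the class, in 7 cells, at 166, 0, 0, 16.6, 1.07 and 1.63 CPM in the Tnmd-/- cells and 0, 3.52, 0.16, 18.1, 6.17 and 0 CPM in the WT cells. Tnmd-/- cell 1 gave 81.9% of its Tnmd-/- counts. The ratio was 2.35 (2.17 to 2.53), and with 1 CPM added it was 2.17, or 0.10 without that cell.

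Psme4 (chromosome 11 from 30771726 to 30880361), a large single-chain activator, was lower in the Tnmd-/- sum, with 302 against 4179 counts. Its values were 48.6, 10.6, 2.24, 0, 0 and 3.86 CPM in the Tnmd-/- cells and 360, 0, 130, 0, 29.9 and 0 CPM in the WT cells. Thus 3 cells of each genotype had at least 10 counts, and 3 WT cells had none. The ratio was -3.18 (-3.36 to -3.01). Psmf1, which encodes the proteasome-binding protein PI31, had 201 counts in Tnmd-/- cell 1, 41 in WT cell 4 and none elsewhere. The activator class summed to 152 and 87.3 CPM.

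Assembly chaperones were seen in fewer cells than the core and base genes were. None of the 7 genes was seen in 6 or more cells, compared with 18.8% of all genes with at least 20 counts. Their median, Psmg3 with 0 counts included, was 3 cells as for the activators, against 2 for all such genes. The class summed to 345 and 481 CPM (log2 ratio -0.48, -0.51 to -0.45, and -1.54 without Tnmd-/- cell 9). Psmg1 and Psmg2 form a pair that builds the alpha ring, and they were not read together in any cell. Psmg1 had 664 counts in WT cell 10 and none in the other 11 cells, so that the Tnmd-/- sum lay below the WT sum with a log2 ratio of at most -7.18 against 3 counts, and both sums were at 0 without that cell. Psmg2 was at 0.188, 0, 1.12, 254, 7.76 and 0 CPM in the Tnmd-/- cells and at 0, 0.622, 206, 0, 0 and 0.221 CPM in the WT cells, so that 1 cell of each genotype carried 97.0% and 99.8% of its counts. For the partners Psmg3 and Psmg4, Psmg3 was at 0 in all cells and Psmg4 was at 250, 0, 7.84, 0, 0.194 and 0 CPM in the Tnmd-/- cells and at 274, 0, 161, 2, 189 and 0 CPM in the WT cells. Psmg4 was seen in 1 Tnmd-/- and 4 WT cells, with a ratio of -1.62 (-1.70 to -1.53). It was 0.69 in the more degraded cells and -6.83 in the less degraded cells, with 1 CPM added.

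The base chaperones Psmd5, Psmd9 and Psmd10 behaved likewise. Psmd5 was at 86.6, 0.665, 1.12, 0, 211 and 0 CPM in the Tnmd-/- cells and at 0.167, 224, 200, 42.8, 0.0735 and 0 CPM in the WT cells, nearly equal in the sums (75.1 and 76.6 CPM). Tnmd-/- cell 10 gave 82.5% of the Tnmd-/- counts, and the ratio was -1.98 without that cell and 0.93 without WT cell 4, with 1 CPM added. Tnmd-/- cell 9 held 99.8% of the Tnmd-/- counts of Psmd9 and nearly all of those of Psmd10, while WT cell 10 held 74.9% of the WT counts of Psmd9 and WT cell 1 held 82.4% of those of Psmd10. For Psmd9, 25.5% of the exon bases are shared with the annotated gene Gm26745.

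Partners of the proteasome that carry other names differed in both directions. Of 10 such genes, 4 were at least doubled and 1 was at most halved in the Tnmd-/- sum, with a median of 0.26, where 35.5% and 34.9% of all genes were past these limits. Akirin2, which guides proteasomes into the nucleus, was the lowest. It had 7 counts in the Tnmd-/- cells (0 to 1.99 CPM, median 0.145) and 11466 in the WT cells (0 to 1680 CPM, median 78.3), and was seen in 0 and 4 cells, a ratio of -10.07 (-11.39 to -9.03). Ube3c, a ubiquitin ligase bound to the proteasome, was the highest, with 266 against 5 counts (6.34, 5.10 to 7.97), seen in 3 and 0 cells. The proteasomal deubiquitinases Uchl5 (4.28, 4.11 to 4.46) and Usp14 (2.40, 2.32 to 2.48) and the thioredoxin-like Txnl1 (1.34, 1.31 to 1.37) were also higher in the Tnmd-/- sum. With 1 CPM added, Usp14 was at 1.18 without Tnmd-/- cell 20 and 5.54 without WT cell 4. Txnl1 was at 0.66 without Tnmd-/- cell 10, 0.98 with equal weights and -0.29 in the more degraded cells. Uchl5 ranged from 2.57 to 6.58 with single cells left out. Pomp, the maturation chaperone of the core, was at 58.6 and 95.9 CPM (-0.71, -0.79 to -0.64), and the ratio was -2.48 without Tnmd-/- cell 10, with 1 CPM added. Zfand5, a proteasome-activating zinc finger protein, was the most broadly seen, in 11 cells, with 265 and 393 CPM.

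Ubiquitin itself was abundant in every cell. Ubb ranged from 298 to 6082 CPM (median 3059) in the Tnmd-/- cells and from 2286 to 4470 CPM (median 3466) in the WT cells, and Rps27a was also seen in all 12. Pooled, Ubb had a ratio of 0.34 (0.33 to 0.35) and Rps27a 0.25 (0.23 to 0.27), which was -0.01 without WT cell 10, with 1 CPM added. Neither sign was stable. With 1 CPM added, Ubb was at -0.21 with equal weights, -0.28 with DESeq2 and -0.15 with TMM factors, and -1.20 in the more degraded cells. Rps27a was at -0.21, -0.66, -0.42 and -0.42 in the same order. Of the 14 genes of the ubiquitin and shuttle list with at least 20 counts, 1 was at least doubled (Ddi2, 3.14, 3.00 to 3.29) and 4 were at most halved, against 35.5% and 34.9% of all genes. Ddi2 was seen in 2 Tnmd-/- cells and 1 WT cell. With 1 CPM added, its ratio was 2.12 to 6.18 with single cells left out and -3.86 in the more degraded cells. The median of the list was -0.28, and it took both signs as single cells were left out (-0.57 to 0.31). Ubqln2, a shuttle gene, and Nploc4, a cofactor of the unfoldase Vcp, had 0 counts in the Tnmd-/- against 559 and 1238 in the WT cells.

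The genes known to regulate proteasome transcription were mostly lower in the Tnmd-/- sum. Of 7 with at least 20 counts, 5 were at most halved and 0 were at least doubled, compared with 34.9% and 35.5% of all genes. The median of -2.14 stayed between -2.37 and -1.30 with single cells left out, but was -0.58 with DESeq2 factors, where 3 were at most halved and 1 at least doubled. Bach1, a repressor at antioxidant response elements, held this median, and it was at -0.51 without WT cell 2, -0.77 with TMM and 1.26 with DESeq2 factors, with 1 CPM added. Nfe2l1, the transcription factor that induces proteasome genes when the complex is inhibited, ranged from 3.36 to 123 CPM (median 35.4) in the Tnmd-/- cells and from 0 to 844 CPM (median 69.4) in the WT cells, with a ratio of -2.31 (-2.38 to -2.24). With 1 CPM added it was -2.29 over all cells, -0.995 without WT cell 5, -2.74 in the less and 4.05 in the more degraded cells. Its relative Nfe2l2, which drives antioxidant genes, ranged from 4.75 to 62.9 CPM (median 9.32) in the Tnmd-/- cells and from 0.443 to 410.5 CPM (median 270) in the WT cells, with a ratio of -3.70 (-3.81 to -3.60) that stayed between -4.25 and -3.29 with each cell left out, with 1 CPM added. Keap1, the adaptor that marks the Nfe2l2 protein for degradation, was the lowest of the list by this ratio with 4 against 112 counts, and with 1 CPM added it was -1.47, or 0.09 without WT cell 10. Among the small Maf partners, Mafk was the highest (0.62, 0.58 to 0.67, and 4.10 without WT cell 10 with 1 CPM added) and Maff the most broadly seen, in 11 cells. Ngly1, the enzyme that activates the Nfe2l1 protein, was at 0 in all cells.

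Antigen presentation genes that work downstream of the proteasome were uneven. Of 8 with at least 20 counts, 2 were at least doubled and 2 at most halved, compared with 35.5% and 34.9% of all genes. The median was 0.09, and -0.16 to 0.29 with single cells left out. B2m, the light chain of MHC class I, was seen in all 12 cells at 1025 and 872 CPM (0.23, 0.21 to 0.25), with a ratio of -0.26 without Tnmd-/- cell 9, with 1 CPM added. Calr, Canx and Pdia3, chaperones of the peptide loading step, were seen in all 12 as well, and Calr was the highest with counts in both genotypes (1.70, 1.64 to 1.76). With 1 CPM added, Calr was at 0.77 with equal weights, 0.93 with DESeq2 and 0.86 with TMM factors, and 0.02 in the more degraded cells. Tapbp was the lowest (-3.37, -3.51 to -3.24), seen in 2 Tnmd-/- and 3 WT cells. Its ratio was 3.65 in the more degraded cells, with 1 CPM added. Tap1, the peptide transporter subunit beside Psmb9 on the chromosome, and Erap1 were at 0 throughout, and Tap2 had 1201 counts in Tnmd-/- cell 10, 1 count in Tnmd-/- cell 1 and none in the WT cells.

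Promoters were searched for the antioxidant response element bound by Nfe2l1 and Nfe2l2, since these genes differed between the sums. Windows of the RefSeq table (GRCm38.p6) were found for 40 of the 48 genes. In the 250 bases before the start site the motif TGACNNNGC, on either strand, was found for 5 of 40 members (12.5%), compared with 11.5% of all 27025 genes with a window and 14.2% of the 6727 of these with at least 20 counts. The share among members lay between these values. The CCAAT box was present in 35.0% of the members, 37.5% of all genes and 39.9% of the expressed genes. The 3 members with the motif nearest to the start site are shown because they include a pair of the catalytic subunits, 5′ to 3′ on the strand of the gene, with the motif in capitals.
Psmb5 (chr14:54618024-54618052, minus strand): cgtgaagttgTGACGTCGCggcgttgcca
Psmb6 (chr11:70525338-70525356, plus strand): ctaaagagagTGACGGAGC
Psmd9 (chr5:123228149-123228177, plus strand): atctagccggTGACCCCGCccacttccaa
The motif began 47 bases before the start site in Psmb5, 9 in Psmb6 and 31 in Psmd9, and no annotated exon overlapped these stretches. Psmc6 and Psmd12 held it near the far end of the window, 227 and 247 bases before the start. The pooled ratios of these 5 genes ran from -0.37 (Psmd9) to 1.87 (Psmd12) and Psmd6, the gene lowest in the Tnmd-/- cells, was without the motif in this window. No window was found for Psmb1, Psmb2 and Psmb7. A match is a description of the letters only, and binding was not measured.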

How the data were processed

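Raw counts per gene symbol and cell, deposited by the authors without normalization, were used. The authors trimmed reads with BBDuk, kept reads that mapped only to mouse with BioBloom, ran STAR 2.5.1b against GRCm38 with Ensembl 96 genes, and counted unique exon reads with featureCounts of Subread 2.0.0. The strand of counting is not given in the sources used here. Gene positions and exon lengths came from GENCODE M21.

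The labels name no animal, so the counts of the 6 cells of each genotype were added up and scaled to the total of that sum (CPM). Intervals are exact Poisson intervals on sums and exact binomial (Clopper-Pearson) intervals on ratios. They cover counting error only, since amplified reads that lack molecular identifiers cannot be taken for single molecules. Comparisons over many genes used genes that reached 20 counts in all cells together, and 1 CPM was added. The degradation level came from the annotation bar of the study's heat map.

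The members, the gene lists and the roles were chosen with earlier results of these data known. All members may be named. Values of each cell are given for the genes of a role with the highest and lowest ratio, the most broadly seen one, and all catalytic and immunoproteasome genes. Of the other lists, the same extremes are named, apart from some genes that are not reported here. The alternatives were equal weights for cells, DESeq2 1.42.0 and edgeR 4.0.16 scaling factors, totals without mitochondrial genes and the 50 genes with most counts, each degradation level alone, each cell left out, 5 CPM added, other count minimums and thinning. Leaving out the 3 shallowest cells together was chosen after seeing the data. Scripts ran in Python 3.11.15 with pandas 2.3.3 and scipy 1.17.1. The pooled ratio was also run on simulated sums that held counting error alone. That run cannot judge the ratio under spread between cells or amplification, which the simulation left out. The other assays of the study were not analysed here.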

Additional observations from a re-analysis of the deposited data

Results flagged for a closer look

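In 22 groups of 6 values, 2 held a cell that stood apart from the other 5 by Dixon's criterion, a criterion that chance meets in about 1 of 20 groups. In Tnmd-/- cell 9, members made up 0.660% of the genes with at least 10 counts, against 0.924% to 1.06% in the other Tnmd-/- cells. At equal depth it did not stand apart, with 0.898% against 0.445% in Tnmd-/- cell 3 and 1.04% to 1.12% in the other 4. This cell had 21 members at 100 counts or more and none from 10 to 99. In WT cell 1 the beta ring genes summed to 7979 CPM, against 905 to 3153 CPM in the other WT cells, most of it from Psmb2, Psmb6, Psmb1 and Psmb4. For the 41 members with at least 20 counts and their sum over all members, 42 values in all, none had Tnmd-/- cells that lay wholly above the WT cells at one degradation level and wholly below them at the other.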

How the results depend on the processing

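The cells of a genotype count as 1 sample, so no result here carries a replicate error, and depth limits the shallow Tnmd-/- cells 3 and 7, in which 1 read is worth 0.665 and 1.12 CPM. The DESeq2 factors scale up the counts of these same cells most. No paired analysis was possible because the replicate numbers are those of picked cells and the results come from no test.

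The summed log2 ratio of the 48 genes, -0.24, was -0.62 with equal weights for cells, -0.34 with DESeq2 size factors, -0.54 with TMM factors, -0.27 with totals without mitochondrial genes and the 50 genes with most counts, -0.22 without Tnmd-/- cells 3 and 7 and WT cell 14, and -1.31 in the more degraded cells. It reversed to 0.020 in the less degraded cells. With single cells left out it lay between -0.45 and -0.044. The count of members at least doubled, 4, was 7 in the more degraded cells and 3 to 8 with single cells left out (8 without WT cell 4 or WT cell 10). The count of members at most halved, 11, was 19 in the more degraded cells and 8 to 13 with single cells left out. The number of members seen in at least 6 cells, 31, was 28 to 39 under all alternatives, with a minimum of 1 count at the upper end. Among single members past a doubling, Psmd13 lay between -5.61 and 0.27 with single cells left out (0.27 without WT cell 10), and Psmf1 between -0.82 (without Tnmd-/- cell 1) and 2.75. Psme3 reversed to -0.15 and Psmf1 to -1.05 in the less degraded cells, and Psmg4 to 0.69 in the more degraded cells. Of the other 11, 10 kept their sign in all alternatives run on single genes, and Psmg1 was at 0 in both genotypes without WT cell 10 and in the more degraded cells. The cause of these shifts was not tested.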
